A study of Mus musculus with 16 samples.

Results

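The microRNAs of wild-type mouse embryonic stem cells were compared between 48 h of differentiation and 0 h, the cells still in 2iL. All wild-type samples carried the strain label 129/C57BL/6 and passages 9 to 11, and their column names call the line V65. The 48 h cells had been kept in N2B27 with bFGF and KSR, and the 0 h cells in 2iL, the medium with inhibitors of MEK and GSK3 plus LIF. Each time had 2 small RNA libraries, which the study design counts as biological replicates without saying what was repeated, so p-values measure only the spread between these libraries. Other small RNA libraries of the same cells at 12 h and 24 h share in the estimate of that spread, and mRNA libraries of wild-type cells in 2iL and at 48 h were used for host transcripts. All 8 small RNA libraries are of wild-type cells, and the mRNA libraries of the Dgcr8-/- line were not used here. Members were all rows, each 1 arm (5p or 3p) of 1 hairpin, that were above 0 in at least 2 of the 4 libraries of 48 h and 0 h, with no threshold on the difference: 1287 of 1696 rows met this, and 1011 of them were above 0 in all 4 libraries. Just inside the rule, 160 arms were above 0 in exactly 2 libraries, at no more than 0.701 deposited units, and just outside it 177 arms were above 0 in exactly 1 library, at no more than 0.0604.

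A microRNA (miRNA) is cut from a hairpin transcript by Drosha with DGCR8 and then by Dicer, and 1 strand of the resulting duplex, the 5p or the 3p arm, guides an Argonaute protein to messenger RNAs. Bases 2 to 8 of the miRNA, its seed, pair with the target, so miRNAs with the same seed are counted as a family. In mouse embryonic stem cells the miR-290 cluster is known as the most abundant source of miRNAs, and the cluster of miR-302a to miR-302d and miR-367, here the miR-302 cluster, as its counterpart in the epiblast; several of their products share a seed and are known to shorten G1 and to repress cell-cycle inhibitors.

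The first 2 sets below carry the main contrast, since members of 1 seed family came from clusters that moved in opposite directions. Sequences are the RefSeq mature miRNAs on build GRCm38.p6, written 5′ to 3′, with the seed in capitals. Among arms with a sequence at hand, products of the miR-290 cluster and of the miR-302 cluster with the seed AAGUGCU were the following.
miR-291a-3p: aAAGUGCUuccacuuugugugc
miR-294-3p: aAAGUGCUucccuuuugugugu
miR-295-3p: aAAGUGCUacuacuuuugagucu
miR-302b-3p: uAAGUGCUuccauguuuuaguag
miR-302d-3p: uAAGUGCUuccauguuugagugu
The related seed AAAGUGC, which holds the letters AAGUGC 1 base further from the 5′ end, belongs to 6 miRNAs of 3 paralogous clusters (miR-17-92, miR-106b-25 and, on the X chromosome, miR-106a-363).
miR-17-5p: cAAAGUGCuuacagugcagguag
miR-20a-5p: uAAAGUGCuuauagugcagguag
miR-20b-5p: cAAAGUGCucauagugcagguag
miR-106a-5p: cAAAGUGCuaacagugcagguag
miR-93-5p: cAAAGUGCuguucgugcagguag
miR-106b-5p: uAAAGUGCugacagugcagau
Other abundant products of the miR-290 cluster have different seeds, 3 of the 5p arms sharing CUCAAAC.
miR-290-5p: aCUCAAACuaugggggcacuuu
miR-292-5p: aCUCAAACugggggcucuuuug
miR-293-5p: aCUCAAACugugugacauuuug
miR-293-3p: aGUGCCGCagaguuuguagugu
The last set holds arms among the largest rises and falls, with miR-34a-5p and miR-204-5p shown because they have the seed of an arm that moved and were measured beside it.
miR-203-3p: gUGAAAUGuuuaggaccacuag
miR-34b-5p: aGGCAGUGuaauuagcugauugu
miR-34a-5p: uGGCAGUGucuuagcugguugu
miR-21a-5p: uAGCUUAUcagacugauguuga
miR-211-5p: uUCCCUUUgucauccuuugccu
miR-204-5p: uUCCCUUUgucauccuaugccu
let-7g-5p: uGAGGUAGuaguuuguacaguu
let-7f-1-5p: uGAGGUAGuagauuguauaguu
miR-181d-5p: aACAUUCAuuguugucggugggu

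The deposited values are a relative signal that sums to 110000 in every library, so each value is a share of the miRNA signal and not an amount per cell. Recovered reads numbered 7992979 and 9131989 in the 48 h libraries, against 6082929 and 5441382 in the 0 h libraries, and 1 read was worth 0.0120 to 0.0202 units. Between the 2 libraries of a time, Pearson's r over log2 values was 0.996 to 0.997. Hairpin copies with 1 mature sequence held equal or nearly equal rows in some cases, such as miR-344-1-3p and miR-344-2-3p, which are then not independent. In others they differed, such as miR-16-1-5p and miR-16-2-5p, and no source used here says how reads were divided between copies. Levels were not corrected for length, which was 20 to 25 bases for the mature miRNAs looked up.

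Of the 1287 members, 952 reached 0.1 units in at least 2 of the 8 small RNA libraries and were tested with limma on log2(value + 0.1), where the pseudocount of 0.1 understates the change of low arms. The other 335 never exceeded 0.193 units in these 4 libraries. At a Benjamini-Hochberg adjusted p below 0.05, 332 arms were higher at 48 h (34.9% of those tested), 300 were lower (31.5%) and 320 were not called, so 66.4% were called in either direction. Counts in the lists below are to be read beside these shares, since a small list can lie near them. All 632 called arms had libraries of 48 h and 0 h that did not overlap. That is no support of its own, since the calls rest on the same libraries. A difference of at least 2-fold was fitted for 194 of the rises and 130 of the falls. With rows of the same signal counted once, 256 rises and 288 falls remained. Which direction prevailed depended on the scaling, with 308 rises and 332 falls after upper-quartile scaling. The median log2 difference over all arms tested was −0.06 and the median standard error 0.17. Among the tested arms, 29 reached 0.1 units in both 48 h libraries and in neither 0 h library, and 20 the other way round. The libraries of these arms could not overlap, so the arms had to differ. The 12 h and 24 h libraries, which also count for the filter, did not enter these counts.

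**Figure D1:**
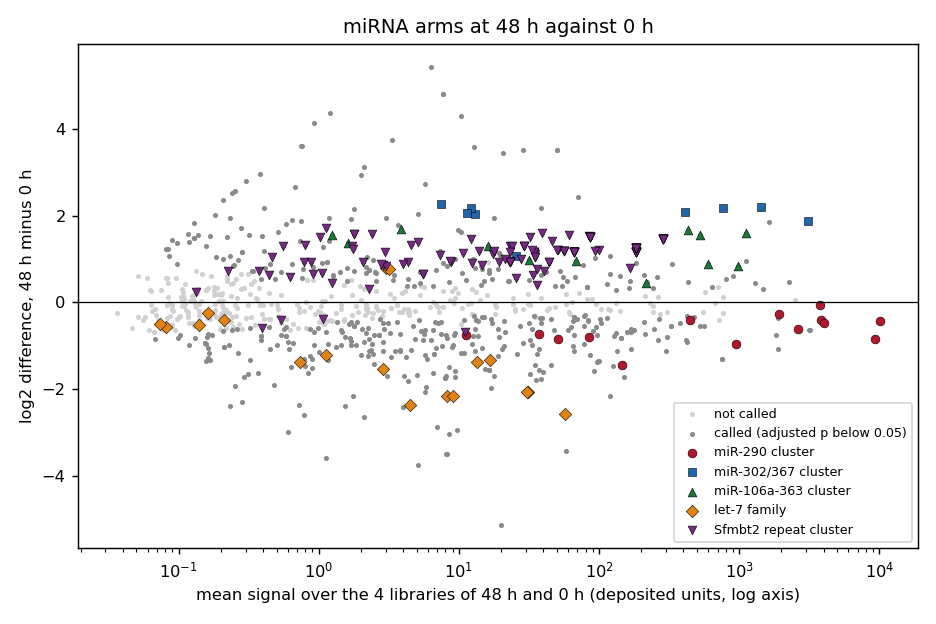
Each point is 1 of the 952 tested arms, with its mean signal over the 4 libraries on a log axis and its log2 difference (48 h minus 0 h) on the vertical axis. Arms of the miR-302 cluster lie at 1.08 or above and those of the miR-106a-363 cluster above 0, while the abundant arms of the miR-290 cluster and most let-7 arms lie below 0.

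The most abundant miRNAs came from the miR-290 cluster (chr7:3218626-3220841, plus strand, GRCm38.p6), and 12 of its 14 arms fell while none rose. Their summed signal was 31301 and 30116 units in the 48 h libraries (28.5% and 27.4%), against 44219 and 44079 in the 0 h libraries (40.2% and 40.1%). This cluster also served as the check of the labelled cell type, and it was the largest single source of signal among the lists at both times. The list's median log2 difference was −0.67, beside −0.06 over all arms tested. miR-293-3p, the arm with the highest mean over the 4 libraries, had 8653 and 8542 units at 48 h, against 11593 and 11784 at 0 h (log2 −0.44, SE 0.10, adjusted p = 0.00125). That fall turned to 0.17 under quantile scaling and had an adjusted p of 0.054 under median-ratio scaling, and over all 17 alternatives the adjusted p ran from 0.00024 to 0.45.

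The arms of the miR-290 cluster did not move by like amounts. miR-292-5p had 6418 and 6962 units at 48 h, against 12372 and 11738 at 0 h (log2 −0.85, SE 0.11, adjusted p = 4.8e-06, with 1.0e-10 to 0.45 over the alternatives, the last under quantile scaling). miR-291a-5p, of the same cluster, had 670 and 616 units at 48 h, against 1271 and 1248 at 0 h (log2 −0.97). The largest fall of the cluster was that of miR-291b-5p, with 79.7 and 76.9 units at 48 h, against 209 and 222 at 0 h (log2 −1.46). At the other end, miR-293-5p had 3643 and 3738 units at 48 h, against 4250 and 3513 at 0 h, libraries that overlapped (log2 −0.07, adjusted p = 0.62). The 3p arms with the seed AAGUGCU lay between: miR-294-3p had 2254 and 1905 units at 48 h, against 3080 and 3285 at 0 h (log2 −0.62, adjusted p = 0.00015). For miR-295-3p the values were 3711 and 3073 units at 48 h, against 4709 and 4676 at 0 h (log2 −0.47, adjusted p = 0.0018, with 0.0010 to 0.19 over the alternatives, the last under quantile scaling). miR-291a-3p, with 1755 and 1692 units at 48 h against 1859 and 2323 at 0 h, was not called (log2 −0.27, adjusted p = 0.053), although without 0 h replicate 1 it was (adjusted p = 0.0058, with 0.0058 to 0.42 over the alternatives). miR-292-3p (log2 −0.40) lost its call without 48 h replicate 2 (adjusted p = 0.089) and without 0 h replicate 2 (adjusted p = 0.063), with 0.0051 to 0.91 over the alternatives, and miR-290-5p (log2 −0.41) lost its own without 48 h replicate 2 (adjusted p = 0.091) and without 0 h replicate 1 (adjusted p = 0.051), with 0.0023 to 0.091 over them.

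The miR-302 cluster (chr3:127545228-127545807, plus strand) moved the other way, and all 9 of its tested arms rose (median log2 2.08). The sum of its arms was 9706 and 8710 units at 48 h (8.82% and 7.92%), against 2255 and 2361 at 0 h (2.05% and 2.15%). miR-302b-3p, its most abundant arm, had 5141 and 4541 units at 48 h, against 1244 and 1409 at 0 h (log2 1.87, SE 0.12, adjusted p = 4.6e-09). miR-302d-3p had 2504 and 2184 units at 48 h, against 533 and 493 at 0 h (log2 2.19, SE 0.10, adjusted p = 2.0e-10). Both arms of miR-302a rose: miR-302a-5p had 1275 and 1224 units at 48 h, against 303 and 252 at 0 h, and miR-302a-3p had 676 and 658 at 48 h, against 144 and 172 at 0 h. The smallest rise was that of miR-302c-3p (log2 1.08), and miR-367-3p, the product of the last hairpin, rose by 2.05 on the log2 scale. The miR-367-5p row was at 0 in all 4 libraries. The rise lay late in the course, since the summed signal was 2255 and 2361 at 0 h, 1773 and 1799 at 12 h, 2472 and 2706 at 24 h, and 9706 and 8710 at 48 h.

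Within the seed AAGUGCU, the falls of the miR-290 products and the rises of the miR-302 products met. The 3 miR-290 products (miR-291a-3p, miR-294-3p and miR-295-3p) summed to 7720 and 6669 units at 48 h, against 9649 and 10284 at 0 h. The 2 miR-302 products (miR-302b-3p and miR-302d-3p) summed to 7645 and 6725 units at 48 h, against 1778 and 1901 at 0 h. These miR-302 products thus made up 49.8% and 50.2% of the summed signal of the 5 arms at 48 h, against 15.6% and 15.6% at 0 h. The 5 arms together stood at 15365 and 13394 units at 48 h, against 11427 and 12185 at 0 h, a ratio of 1.22. The seed CUCAAAC of the miR-290 5p arms stood at 10474 and 11059 units at 48 h, against 17150 and 15747 at 0 h, a ratio of 0.655. Only arms with a RefSeq mature sequence at hand entered these sums. The rising arm miR-302a-3p had none, so it was left out and the sums need not hold the whole seed. With 2 libraries against 2, an exact two-sided permutation p cannot fall below 0.33, so no test of the sums is given.

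**Figure D2:**
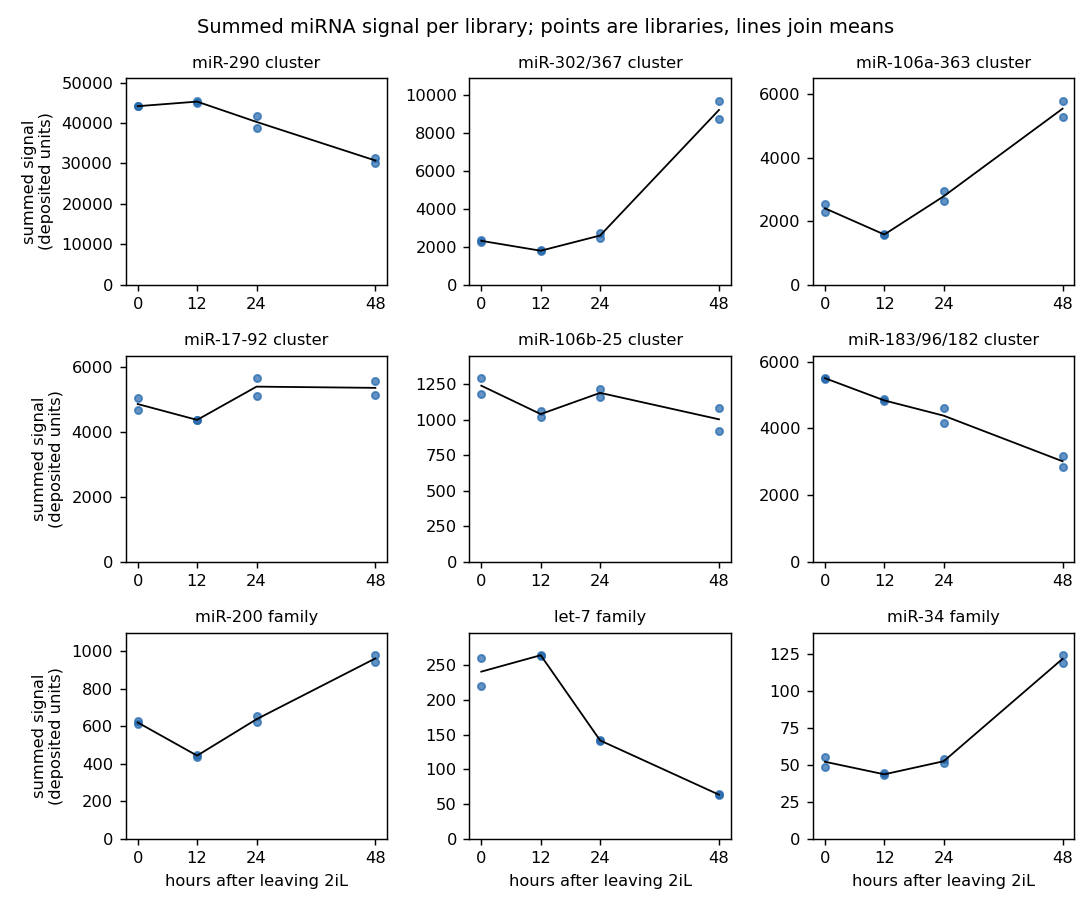
Summed signal of 9 clusters and families against hours after leaving 2iL, in deposited units from 0, with 1 point per library and lines through the means of the 2 libraries. The miR-302, miR-106a-363 and miR-34 sums are highest at 48 h and dip at 12 h, whereas the miR-290, let-7 and miR-183 sums are lowest at 48 h.

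The 3 paralogous clusters of the miR-17 type, known for promoting proliferation, differed in direction. All 12 arms of the X-linked miR-106a-363 cluster (chrX:52741693-52742567, minus strand) rose, with a median log2 difference of 1.33. miR-20b-5p had 1572 and 1811 units at 48 h, against 499 and 615 at 0 h (log2 1.61, SE 0.12, adjusted p = 3.2e-08). miR-106a-5p had 706 and 846 units at 48 h, against 235 and 300 at 0 h, and miR-18b-5p had 640 and 659 at 48 h, against 203 and 208 at 0 h (log2 1.54 and 1.66). miR-363-3p had 1268 and 1223 units at 48 h, against 712 and 685 at 0 h (log2 0.84). The summed signal of the cluster was 5291 and 5806 units at 48 h, against 2281 and 2531 at 0 h.

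In the miR-17-92 cluster on chromosome 14, 3 of 10 arms rose (30.0%, beside 34.9% of all arms tested) and 1 fell, miR-18a-3p. There were 0 falls when any 1 library was left out, and also with a pseudocount of 0.01, with no filter, in the 4 libraries alone and with DESeq2. miR-17-5p had 632 and 703 units at 48 h, against 602 and 759 at 0 h (log2 −0.02, adjusted p = 0.89), and miR-18a-5p had 137 and 124 at 48 h, against 123 and 142 at 0 h, so the libraries of both arms overlapped. miR-20a-5p had 1461 and 1796 units at 48 h, against 1206 and 1413 at 0 h. Its rise (log2 0.31, adjusted p = 0.031) was lost without 48 h replicate 2 (adjusted p = 0.30) and without 0 h replicate 1 (adjusted p = 0.21), and the difference was −0.08 under quantile scaling, with an adjusted p of 0.0092 to 0.67 over the alternatives. The 3 rises of this cluster became 0 without 48 h replicate 2, and 1 without 0 h replicate 1. miR-92a-1-3p of this cluster and miR-92a-2-3p of the X-linked one have the same mature sequence yet separate values (2540 and 2547 units at 48 h, against 2484 and 2385 at 0 h, for miR-92a-1-3p, and 705 and 842 at 48 h, against 393 and 438 at 0 h, for miR-92a-2-3p).

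The miR-106b-25 cluster, in the gene Mcm7 on chromosome 5, had 4 falls and no rise among 6 arms (median log2 −0.32), a count that was 1 without 48 h replicate 1, 1 without 0 h replicate 2 and 1 with no intensity trend in the fit. miR-93-5p had 346 and 416 units at 48 h, against 438 and 505 at 0 h (log2 −0.31, adjusted p = 0.026), and miR-25-3p had 384 and 464 at 48 h, against 511 and 553 at 0 h (log2 −0.33, adjusted p = 0.019). The miR-93-5p call was lost without 48 h replicate 1 (adjusted p = 0.255) and without 0 h replicate 2 (adjusted p = 0.176), with 0.000216 to 0.255 over the alternatives. The miR-25-3p call was lost without the same libraries (adjusted p = 0.21 and 0.10), with 0.00738 to 0.21 over the alternatives. Over the whole seed AAAGUGC, the 6 miRNAs stood at 4829 and 5684 units at 48 h, against 3107 and 3720 at 0 h, a ratio of 1.54.

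The largest rises among arms with a mean of at least 10 units were led by miR-203-3p, a miRNA known from epidermal differentiation. It had 18.8 and 20.4 units at 48 h, against 0.743 and 1.09 at 0 h (log2 4.30, SE 0.19, adjusted p = 9.3e-11). miR-34b-5p and miR-34c-5p, products of 1 transcript on chromosome 9 that p53 is known to induce, came next. miR-34c-5p had 47.9 and 58.3 units at 48 h, against 4.39 and 4.65 at 0 h (log2 3.52, SE 0.14, adjusted p = 2.7e-11). miR-34b-5p had 23.9 and 23.5 units at 48 h, against 2.21 and 1.64 at 0 h (log2 3.57). miR-34a-5p, which has the same seed and is encoded on chromosome 4, had 42.1 and 37.8 units at 48 h, against 48.2 and 41.8 at 0 h, and was not called (log2 −0.17, adjusted p = 0.21), although under quantile scaling it was called lower (−0.36, adjusted p = 0.0228, with 0.0228 to 0.633 over the alternatives). The 4 arms of miR-34b and miR-34c were the only ones of 6 in the miR-34 family to rise.

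miR-344-1-3p and miR-344-2-3p, copies with 1 mature sequence, had 98.9 and 86.4 units at 48 h, against 8.67 and 7.37 at 0 h (log2 3.51, for both rows). miR-3473e-5p had 37.5 and 37.5 units at 48 h, against 2.82 and 4.04 at 0 h (log2 3.44). It stood at 2.92 and 2.96 at 24 h, so its difference arose between 24 h and 48 h. miR-374b-5p, a product of the X-inactivation centre transcript Ftx, had 109 and 128 units at 48 h, against 19.4 and 24.8 at 0 h (log2 2.42, SE 0.15, adjusted p = 3.2e-09). Of the 12 largest rises, 4 were arms of miR-302a and miR-302d.

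An earlier rise was that of miR-21a-5p, a widely expressed miRNA that many growth signals are known to raise. It had 2448 and 2647 units at 48 h, against 724 and 697 at 0 h (log2 1.84, SE 0.10, adjusted p = 8.4e-10), and stood already at 3192 and 3319 units at 12 h. Over all 332 rises, the mean of 298 was highest at 48 h among the 4 times, that of 26 at 24 h and that of 8 at 12 h, and in 87 it rose at every step. Over the 300 falls, the mean of 275 was lowest at 48 h, that of 70 was highest at 12 h, and in 159 it fell at every step. These arms were called for their difference between 48 h and 0 h, so an extreme at 48 h is partly built into these counts. Rows of the same signal are counted separately in them.

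**Figure D3:**
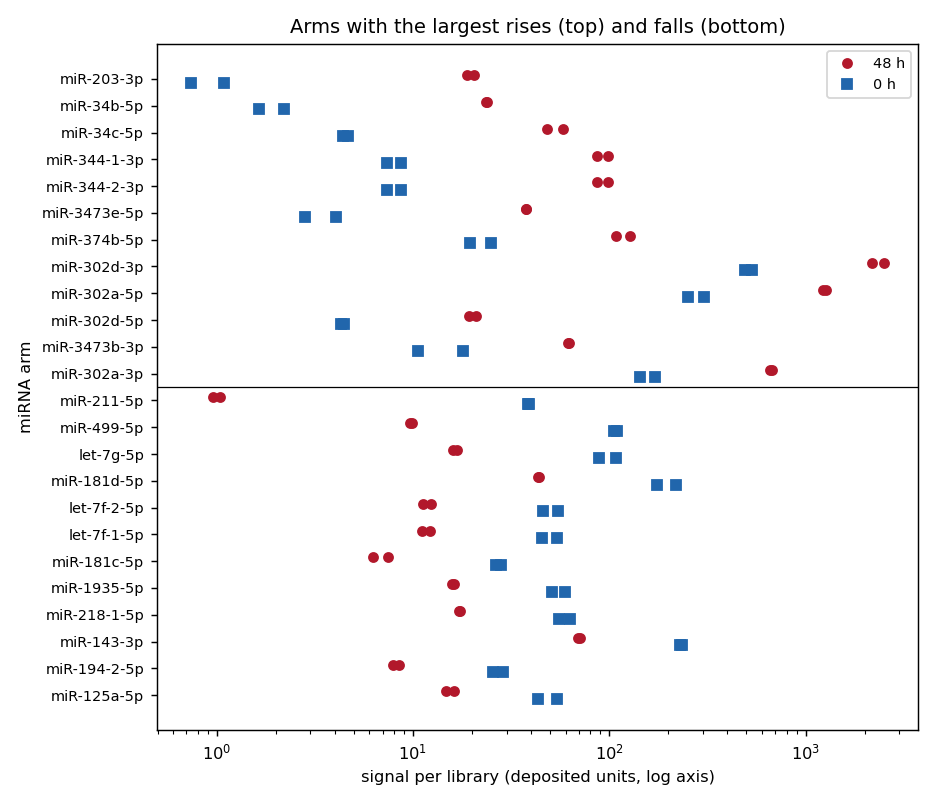
Signal in each library (log axis, deposited units) of the 12 arms with the largest rises and the 12 with the largest falls among called arms with a mean of at least 10 units. Circles are the 48 h libraries and squares the 0 h libraries, and the times do not overlap for any of these arms.

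The largest fall was that of miR-211-5p, which lies within the gene Trpm1 and is known from pigment cells. It had 0.963 and 1.04 units at 48 h, against 38.5 and 38.9 at 0 h (log2 −5.14, SE 0.14, adjusted p = 1.0e-12), a fold change of 38.7 downwards. Its seed relative miR-204-5p had 0.152 and 0.132 units at 48 h, against 0.687 and 0.932 at 0 h (log2 −1.90). miR-499-5p, a product of the myosin gene Myh7b, had 9.94 and 9.67 units at 48 h, against 109 and 105 at 0 h (log2 −3.44, SE 0.13, adjusted p = 2.1e-11).

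The let-7 family, known to promote differentiation and to be held down in stem cells by LIN28, was low at both times and mostly fell, with 11 falls and 2 rises among 18 tested arms (median log2 −1.36). Its summed signal was 64.0 and 63.1 units at 48 h, against 261 and 221 at 0 h. let-7g-5p had 15.97 and 16.8 units at 48 h, against 109 and 88.3 at 0 h (log2 −2.57, SE 0.12, adjusted p = 1.5e-10). let-7f-1-5p and let-7f-2-5p, copies of 1 mature sequence, each fell by 2.08 on the log2 scale. The exceptions were the 5p arms of let-7c-1 and let-7c-2: let-7c-1-5p had 4.01 and 4.06 units at 48 h, against 2.23 and 2.43 at 0 h (log2 0.77). The arms of 1 family that differ by few bases may share reads, so these rows are not independent.

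The miR-125/99/100 group, often transcribed beside let-7, had 8 falls and no rise among 9 tested arms (median log2 −1.48). miR-99b-5p had 51.7 and 60.9 units at 48 h, against 126 and 163 at 0 h, and miR-125a-5p had 14.7 and 16.2 at 48 h, against 43.3 and 54.3 at 0 h. miR-125b-1-5p had 1.24 and 1.25 units at 48 h, against 13.9 and 16.5 at 0 h (log2 −3.50, SE 0.15, adjusted p = 6.1e-11). In the miR-181 family, known from lymphocyte development, 5 of 9 arms fell and 2 rose, beside 31.5% lower and 34.9% higher over all arms tested. miR-181d-5p had 44.1 and 43.5 units at 48 h, against 219 and 176 at 0 h (log2 −2.16, adjusted p = 7.5e-10), and miR-181c-5p had 7.43 and 6.28 at 48 h, against 28.0 and 26.4 at 0 h. The 2 rises, of the miR-181a copies, were not called without 48 h replicate 1, without 0 h replicate 2, with no filter, after upper-quartile scaling or with DESeq2.

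Among ubiquitous families, all 5 tested arms of miR-26 fell, and miR-26a-1-5p and miR-26a-2-5p, copies with 1 mature sequence, had 448 and 421 units at 48 h, against 1150 and 1013 at 0 h (log2 −1.31, SE 0.10, adjusted p = 4.3e-08). The miR-30 family had 7 falls and no rise among 12 arms (median log2 −0.47), led by miR-30d-5p with 289 and 301.01 units at 48 h, against 586 and 523 at 0 h. The miR-23/27/24 clusters had 9 falls and no rise among 12 arms, or 5 falls without 48 h replicate 1. The miR-148 and miR-152 family, known to target Dnmt1, had 5 falls among 6 arms, and its most abundant arm miR-148a-3p had 1637 and 1641 units at 48 h, against 2245 and 1976 at 0 h (log2 −0.36, adjusted p = 0.013). That call was lost without 48 h replicate 1 (adjusted p = 0.055), without 48 h replicate 2 (adjusted p = 0.053) and without 0 h replicate 1 (adjusted p = 0.095), and over the alternatives the adjusted p ran from 0.0052 to 0.095.

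The miR-15 and miR-16 family, known to restrain the cell cycle, had 6 falls and 1 rise among 11 arms, and 3 falls without 48 h replicate 1 or without 0 h replicate 2. The miR-130 and miR-301 family had 4 falls among 8 arms and no rise, where 31.5% of all arms tested fell and 34.9% rose. The miR-29 family, known to target collagens and DNA methyltransferases, went the other way with 3 rises and no fall among 6 arms. Besides miR-29a-3p, the rises were of miR-29b-1-3p and miR-29b-2-3p, copies with 1 mature sequence. Their means were low, at 1.76 and 1.565 units at 48 h, against 0.594 at 0 h for each. miR-29c-3p was not called, with means of 0.376 units at 48 h and 0.342 at 0 h. miR-29a-3p had 29.5 and 27.1 units at 48 h, against 7.17 and 7.30 at 0 h (log2 1.95, SE 0.13, adjusted p = 6.4e-09). miR-7a-1-5p and miR-7a-2-5p, copies with 1 mature sequence, fell by 0.63 on the log2 scale, and the miR-7a-1-5p row had 2526 and 2484 units at 48 h, against 4284 and 3507 at 0 h.

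The epithelial miR-200 family, known to repress Zeb1 and Zeb2, and the cluster of miR-183, miR-96 and miR-182, known from sensory organs, moved in opposite directions. Of 9 miR-200 family arms, 8 rose and none fell (median log2 0.69). miR-200c-3p had 125 and 124 units at 48 h, against 55.2 and 67.6 at 0 h (log2 1.03, SE 0.12, adjusted p = 2.1e-06), and miR-200a-3p had 530 and 474 at 48 h, against 370 and 360 at 0 h (log2 0.46, adjusted p = 0.0014). miR-429-3p (log2 0.48) was not called without 48 h replicate 1 (adjusted p = 0.072, with 0.0015 to 0.27 over the alternatives). All 6 arms of miR-183 (chr6:30165918-30169737, minus strand) fell, with a median of −0.77. miR-183-5p had 1186 and 1247 units at 48 h, against 2669 and 2467 at 0 h (log2 −1.08, SE 0.10, adjusted p = 1.8e-07), and miR-182-5p had 1192 and 1506 at 48 h, against 2170 and 2390 at 0 h (log2 −0.77).

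The imprinted Dlk1-Dio3 region, transcribed from the maternal Meg3, Rian and Mirg genes, had 38 rises (37.6%, close to the 34.9% of all arms tested) and 15 falls among 101 tested arms, with a median log2 difference of 0.22, or 0.03 under quantile scaling. Its summed signal was 15618 and 16411 units at 48 h, against 12524 and 12285 at 0 h. miR-381-3p had 1496 and 1460 units at 48 h, against 801 and 740 at 0 h (log2 0.94, SE 0.11, adjusted p = 3.8e-06), and miR-370-3p had 1055 and 1132 at 48 h, against 722 and 703 at 0 h (log2 0.62, with an adjusted p of 1.9e-06 to 0.49 over the alternatives, the last under quantile scaling). miR-127-3p, antisense to Rtl1, had 2426 and 2794 units at 48 h, against 1958 and 1827 at 0 h (log2 0.46, adjusted p = 0.011), a call lost without 48 h replicate 2 (adjusted p = 0.11) and without 0 h replicate 2 (adjusted p = 0.081), with 0.0020 to 0.11 over the alternatives. Of the repeat-derived miR-297, miR-466, miR-467 and miR-669 hairpins, many of them in an intron of Sfmbt2, 140 of 149 arms rose and 1 fell, but these rows held 78 distinct signals, of which 69 rose. The miR-467a-1-5p row, equal to the 5p row of each further miR-467a copy, had 373 and 461 units at 48 h, against 138 and 162 at 0 h (log2 1.47).

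Hairpins that mature without DGCR8, such as mirtrons, had 7 falls and no rise among 11 tested arms (median log2 −0.75). The mirtron arm miR-1981-5p had 1.62 and 1.93 units at 48 h, against 14.3 and 16.3 at 0 h (log2 −3.04, SE 0.17, adjusted p = 2.0e-09). miR-484-5p had 130 and 138 units at 48 h, against 210 and 203 at 0 h (log2 −0.63). miR-320-3p, with 54.5 and 59.5 units at 48 h against 57.2 and 59.3 at 0 h, was not called (log2 −0.03, adjusted p = 0.81), although under quantile scaling it was called lower (−0.35, adjusted p = 0.00683, with 0.00683 to 0.972 over the alternatives). Of the Hox cluster miRNAs, miR-10 and miR-196, 4 of 6 arms fell and none rose. miR-196a-2-5p had 2.12 and 2.21 units at 48 h, against 15.9 and 18.8 at 0 h (log2 −2.94), and miR-10b-5p had 1.43 and 1.77 at 48 h, against 13.3 and 11.5 at 0 h (log2 −2.88).

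**Figure D4:**
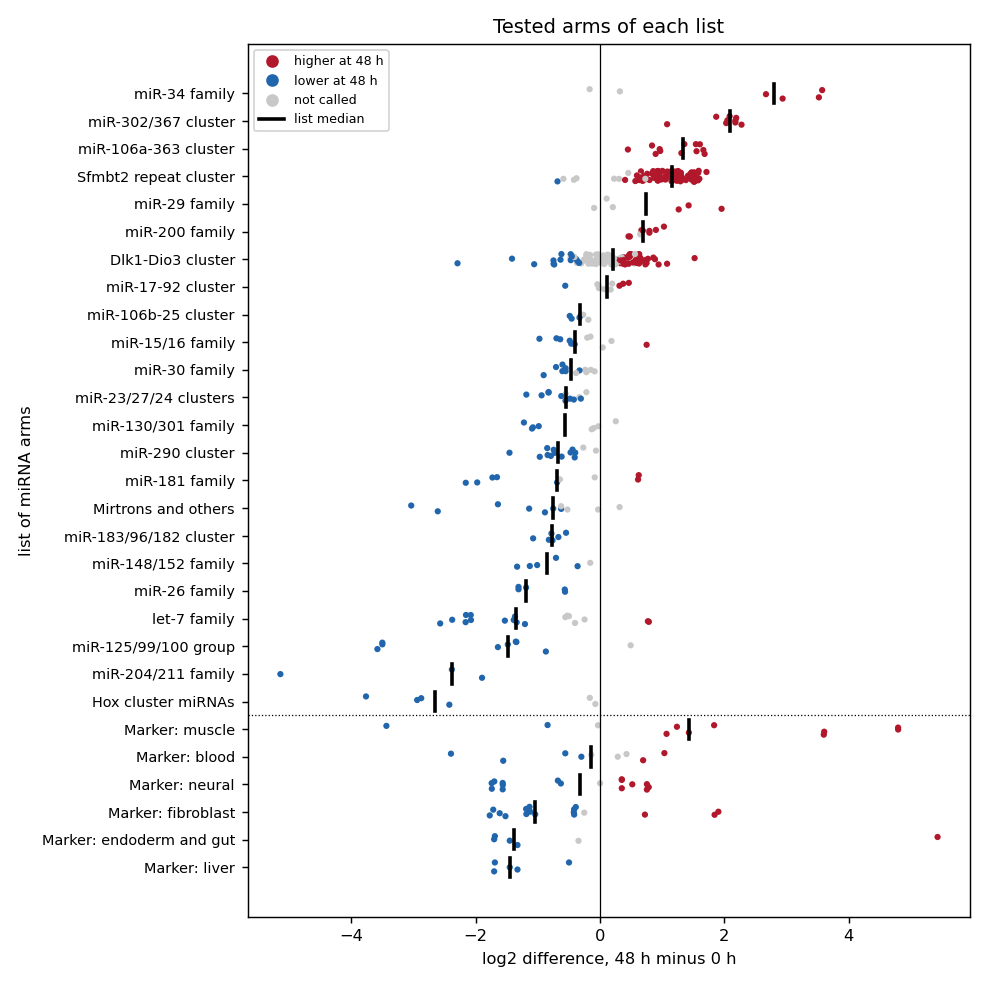
Each point is the log2 difference (48 h minus 0 h) of 1 tested arm, in rows by list, with red for higher at 48 h, blue for lower and grey for not called, and a bar at each list's median. The miR-302 and miR-106a-363 rows lie wholly above 0 and the miR-183 and miR-26 rows wholly below it, while of the marker lists below the dotted line muscle, blood, neural, fibroblast and endoderm arms go both ways.

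Of 6 marker lists of other cell types, the liver list only fell and the other 5 held both rises and falls, and in bulk samples fewer cells of a type and less RNA per cell cannot be told apart. Muscle markers had 8 rises and 2 falls among 11 tested arms (1 fall when any 1 library was left out), while their sum was 30.0 and 27.3 units at 48 h, against 110 and 106 at 0 h, because miR-499-5p made up most of the sum at 0 h. miR-1a-2-3p, a muscle miRNA with nearly the same values in the miR-1a-1-3p row, had 15.7 and 14.04 units at 48 h, against 0.523 and 0.365 at 0 h (log2 4.79, SE 0.18, adjusted p = 2.1e-11). miR-133a-2-3p, made from the same transcripts as miR-1a, had 1.65 and 1.30 units at 48 h, against 0.0183 and 0.0404 at 0 h, the last values being 1 and 2 reads. miR-206-5p, miR-208a-5p and miR-208b-5p were at 0 in all 4 libraries, which says nothing of the 3p arm of miR-206. The other arms of both miR-208 hairpins were low: miR-208a-3p had 0.179 and 0.121 units at 48 h, against 0 and 0.0400 at 0 h. miR-208b-3p had 0.124 and 0.193 units at 48 h, against 0.0183 and 0 at 0 h. Both arms, and miR-133a-2-3p, reached 0.1 units at 48 h and not at 0 h, so they had to differ and no p-value is given. All of them are counted among the 8 rises, which are thus no support for a rise of the list. With rows of the same signal counted once, 7 of 10 muscle signals rose and 2 fell. With a filter at 1 unit, 5 muscle arms were tested, of which 4 rose and 1 fell.

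Fibroblast and mesenchyme markers had 13 falls and 3 rises among 17 tested arms, with a sum of 2857 and 2996 units at 48 h, against 1440 and 1415 at 0 h. miR-21a-5p made up 85.7% and 88.3% of that sum at 48 h, against 50.3% and 49.2% at 0 h. miR-143-3p had 69.7 and 70.9 units at 48 h, against 234 and 229 at 0 h (log2 −1.72, SE 0.10, adjusted p = 2.0e-09), and the miR-145b-5p row was at 0 throughout. Neural markers had 8 falls and 7 rises among 16 arms, and 4 rises without 48 h replicate 2, with a sum of 396 and 377 units at 48 h, against 561 and 527 at 0 h. miR-124-1-3p had 8.41 and 8.02 units at 48 h, against 22.7 and 26.4 at 0 h (log2 −1.56), and miR-9-1-5p had 86.4 and 96.8 at 48 h, against 70.0 and 73.5 at 0 h (log2 0.35, adjusted p = 0.010, but 0.094 without 48 h replicate 2 and 0.0040 to 0.35 over the alternatives). Blood markers had 4 falls and 2 rises among 9 arms, a count near the 66.4% called over all arms tested. Their sum was 146 and 145 units at 48 h, against 211.1 and 236 at 0 h. The rows of miR-223-5p and miR-451a-5p were at 0. Of 14 blood rows only these 2 were at 0 in all 4 libraries, so the 3p rows of both hairpins were not. In the blood list 1 rise was left without 48 h replicate 2 or without 0 h replicate 2. The blood median was −0.14, or 0.14 without 48 h replicate 1. Liver markers had 5 falls among 5 arms, or 3 without 48 h replicate 1, with a sum of 34.5 and 35.7 units at 48 h, against 101 and 99.4 at 0 h. In the endoderm and gut list 4 of 6 arms fell and miR-375-3p, known from pancreatic islets, rose: it had 11.3 and 13.7 units at 48 h, against 0.163 and 0.223 at 0 h (log2 5.43, SE 0.18, adjusted p = 9.2e-12). That list summed to 44.7 and 47.9 units at 48 h, against 99.1 and 97.9 at 0 h. It shares arms with the liver list, miR-194-2-5p among them, so the falls and sums of these lists are not independent. The part of these cell types in the results was not tested.

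Where both were called, the 2 arms of a hairpin mostly moved together. Of the 333 hairpins in the ratio test below, 197 had both arms called. Among these, 106 rose in both, 84 fell in both and 7 went opposite ways (miR-129-1, miR-195a, miR-199b, miR-485, miR-673, miR-760 and miR-1195). Copies with equal rows are counted separately, and the 149 tested arms of the repeat-derived hairpins held only 78 distinct signals. In a test of the 5p to 3p ratio, 67 of 333 hairpins were called (20.1%), 30 toward the 5p arm and 37 toward the 3p arm. The call depends on single libraries and on the pseudocount, with 21 hairpins called without 48 h replicate 1, 28 without 48 h replicate 2, 36 without 0 h replicate 1 and 39 without 0 h replicate 2. The largest shift was that of miR-760, whose 5p arm had 13.8 and 17.5 units at 48 h, against 4.23 and 5.90 at 0 h, while its 3p arm had 0.330 and 0.385 at 48 h, against 1.28 and 1.37 at 0 h. The log2 ratio changed by 3.26 (SE 0.21, adjusted p = 1.2e-05). In miR-199b, the minor 5p arm had 1.06 and 1.10 units at 48 h, against 0.252 and 0.182 at 0 h, and the 3p arm 11.8 and 10.6 at 48 h, against 15.6 and 14.5 at 0 h (ratio change 2.32, adjusted p = 1.9e-05). The 3p rows of miR-199b and of miR-199a-1 were nearly equal.

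Within miR-129-1 the 5p arm had 26.9 and 26.1 units at 48 h, against 12.0 and 12.1 at 0 h, and the 3p arm 1.02 and 0.675 at 48 h, against 1.52 and 1.29 at 0 h (ratio change 1.82, adjusted p = 0.0045). In miR-3473b the 3p arm had 62.5 and 61.8 units at 48 h, against 10.6 and 17.9 at 0 h, with a 5p arm at no more than 0.223 in these libraries (ratio change −2.21). The shifts of miR-211 (−2.76) and miR-499 (−2.59) rest on 3p arms near 0: miR-211-3p was at 0 in both 48 h libraries and had 0.253 and 0.671 units at 0 h. With a pseudocount of 0.01 the miR-211 change was 0.14 and that of miR-499 had an adjusted p of 0.42, the highest over its alternatives (from 1.9e-09).

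Host transcripts were read in separate mRNA libraries of wild-type cells at 48 h and in 2iL, as FPKM. A RefSeq gene on the same strand spanned 164 tested hairpins, and 73 hosts reached 1 FPKM in at least 2 of the 4 libraries with an arm that averaged at least 1 unit, counting the most abundant hairpin of each. Across these 73 pairs, the log2 difference of the arm and that of the host, on log2(FPKM + 1), were correlated at Pearson's r of 0.634 and Spearman's rho of 0.522. This is a description over hosts that share the same libraries, and r was 0.526 without Trpm1. Of 53 pairs with a called arm and host libraries that did not overlap, 27 were lower in both, 7 higher in both, 19 had a lower arm and a higher host, and 0 a higher arm and a lower host. Most of these arms were lower, beside 31.5% of all arms tested, so the counts by direction are no measure of agreement. Host libraries that do not overlap can also differ little, as for Hnrnpk, counted as higher at a log2 difference of 0.047. Copies with 1 mature sequence count here as separate pairs, though their reads may not belong to the copy named. miR-26a-1-5p and miR-26a-2-5p both fell by 1.31, while the host Ctdspl differed by 1.45 and the host Ctdsp2 by −0.85.

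Trpm1, the host of miR-211, was listed at 0 and 0.0672 FPKM at 48 h, against 5.34 and 4.91 in 2iL. Ftx, the host of miR-374b, had 5.36 and 4.65 FPKM at 48 h, against 1.26 and 1.27 in 2iL, and the Dlk1-Dio3 transcript Rian, which holds miR-370, had 486 and 483 at 48 h, against 178 and 185 in 2iL. Other pairs differed in size or in direction. Vmp1, the gene over miR-21a, had 32.2 and 31.9 FPKM at 48 h, against 31.9 and 25.7 in 2iL, a difference of 0.16 on log2(FPKM + 1), beside the 3.59-fold higher mean of miR-21a-5p. Meg3 had 374 and 391 FPKM at 48 h, against 152.1 and 153 in 2iL, while its hairpin arm miR-770-3p fell by 0.75 on the log2 scale. Huwe1, over let-7f-2, had 89.2 and 83.04 FPKM at 48 h, against 78.3 and 69.8 in 2iL, but let-7f-1 has the same mature sequence. In 47 of the 73 pairs the host differed by less than 0.5 on the log2 scale, and 34 of their arms were lower at 48 h and 2 higher.

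**Figure D5:**
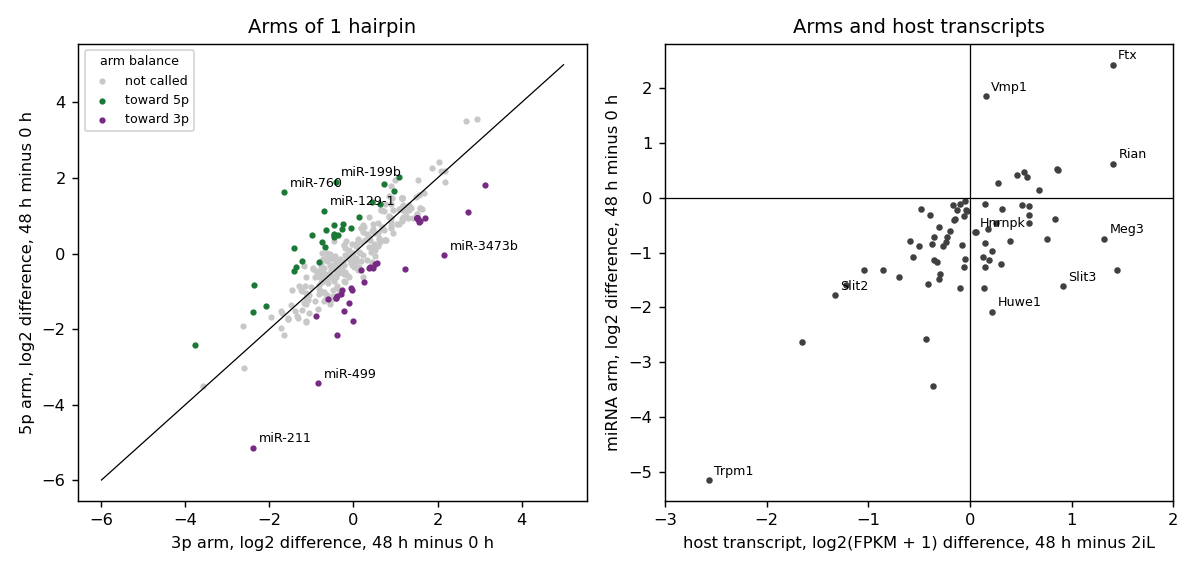
Left, log2 differences (48 h minus 0 h) of the 3p and 5p arms of 333 hairpins, coloured by the called shift of the 5p to 3p ratio, with a line where both arms moved equally. Right, the log2 difference of the most abundant arm of each of 73 host genes against that of the host in log2(FPKM + 1), with both at their lowest for Trpm1.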

How the data were processed

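Small RNA was sequenced in 2 libraries each at 48 h, 24 h, 12 h and 0 h. The authors deposited a relative miRNA signal for each hairpin arm, in which each library sums to 110000. No source used here states how reads were trimmed, mapped or counted. Whole reads could be recovered from this signal: 100% of the low values (under 100 reads) fell within 0.01 reads of a whole number, and libraries held 5441382 to 9131989 reads. The authors deposited mRNA levels as FPKM, for which STAR 2.5.0, Cufflinks 2.2.1 and the build mm10 are listed among the submitters' processing notes.

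Arms with at least 0.1 units in at least 2 of the 8 libraries were fitted with limma 3.58.1 in R 4.3.3 on log2(value + 0.1), with 4 time means and an intensity trend. The contrast was 48 h minus 0 h, with Benjamini-Hochberg adjustment over the 952 arms tested. The 5p to 3p ratio was fitted the same way for hairpins with both arms. edgeR 4.0.16 and DESeq2 1.42.0 on recovered reads, other scalings, pseudocounts and filters, and leaving out each library were alternatives. Only limma was tried on simulated counts, with median-ratio scaling and the same spread for every arm. The unscaled main fit, the ratio fit, edgeR and DESeq2 were not tried in this way. Text names the 12 largest called rises and falls with a mean of at least 10 units, the 15 most abundant arms, up to 4 arms per list and the 6 largest balance shifts, and arms singled out beyond that were chosen after their values were seen. Members and lists were chosen with earlier results of these data known. RefSeq (GRCm38.p6) gave sequences and hairpin positions: 824 of 848 hairpins matched, and 855 arms had a mature sequence. Standard errors and p-values come from the spread between libraries. The floor of 3 reads, which covers counting error only, was 0.0361 to 0.0607 units. The deviations of same-numbered libraries correlated at 0.277 between 48 h and 0 h and at −0.332 to 0.102 between the other times, not above 0.1 throughout, so the numbers were not used as pairs.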

Additional observations from a re-analysis of the deposited data

How the results depend on the processing

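Of 2274 values recomputed under the alternatives, 2169 kept their direction and their side of the threshold. Of 114 called arms among the 129 named, 93 kept their call in every alternative in which they were tested, 80 of them in all 17. Arms higher at 48 h numbered 256 to 341 and arms lower 238 to 332 over the alternatives, and 292 to 325 and 238 to 307 when 1 library was left out. Falls outnumbered rises after upper-quartile scaling (308 higher, 332 lower), quantile scaling (312, 317), with edgeR (318, 328), without 0 h replicate 1 (307 lower) and with 1 row per distinct signal (256, 287), whereas DESeq2 gave 308 and 268. The median log2 difference over all arms was −0.06, −0.15 after upper-quartile scaling and −0.15 with edgeR. Called arm balances numbered 67, against 27 with a pseudocount of 0.01, 134 with a pseudocount of 1, and 21 to 39 when 1 library was left out; the cause was not tested. With the replicate number as a block, 334 arms were higher, 302 lower and 46 balances called, while the deviations of same-numbered libraries correlated at −0.332 to 0.277, the highest being that of 48 h with 0 h. Differences that changed sign were those of miR-293-3p (0.165) and miR-293-5p (0.0693), miR-20a-5p (−0.0810), miR-19b-1-3p (−0.0786) and miR-29c-3p (−0.00783) under quantile scaling. miR-92a-1-3p reached −0.0434 after upper-quartile scaling and −0.0158 with edgeR, and miR-17-5p 0.00465 after median-ratio scaling and 0.00532 with DESeq2. The miR-211 balance reached 0.142 with a pseudocount of 0.01. When 1 library was left out, miR-293-5p ranged from −0.204 to 0.0708, miR-17-5p from −0.187 to 0.147, miR-130a-3p from −0.142 to 0.0842, miR-29c-3p from −0.0337 to 0.244 and miR-320-3p from −0.0952 to 0.0321. Shares near the floor of 3 reads cannot show a fold.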

Other observations

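Several arms outside the lists, chosen after their values were seen, also stood apart. miR-653-5p had 6.08 and 6.52 units at 48 h, against 0.398 and 0.365 at 0 h (log2 3.73). miR-219-2-3p, known from oligodendrocytes, had 3.87 and 3.78 units at 48 h, against 0.524 and 0.222 at 0 h. miR-1298-5p had 2.16 and 2.58 units at 48 h, against 0.0183 and 0.0204 at 0 h, and miR-670-3p had 1.84 and 1.81 at 48 h, against 0 and 0.020 at 0 h. In the other direction, miR-615-3p, encoded in the Hoxc cluster, had 0.0552 and 0.0600 units at 48 h, against 1.10 and 1.21 at 0 h (log2 −2.99), and miR-147-3p had 0.495 and 0.517 at 48 h, against 3.28 and 4.10 at 0 h (log2 −2.64). Of the arms in this paragraph, miR-1298-5p, miR-670-3p and miR-615-3p lay under 0.1 units in both libraries of 1 time and above it at the other. These arms had to differ, so their non-overlap is no support.

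miR-122-5p, a liver miRNA, differed little between the ends of the course but peaked within it. It had 1.90 and 2.00 units at 0 h, 15.3 and 15.6 at 12 h, and 1.27 and 1.43 at 48 h. Its fall at 48 h was not called without 48 h replicate 1 (adjusted p = 0.0826, with 0.00274 to 0.0826 over the alternatives).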
